A study of Homo sapiens with 8 samples.

Results

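The chaperonins are ring-shaped protein-folding machines. The genes followed here encode the cytosolic CCT complex (TCP1, CCT2, CCT3, CCT4, CCT5, CCT6A, CCT7 and CCT8) and the mitochondrial pair HSPD1 (HSP60) and HSPE1 (HSP10). Members were the probe sets whose platform annotation gives 1 symbol that is among these 10 genes. At 12 h this found 8 probe sets, 1 for each of 8 genes, among 8746 probe sets on the array. At 6 h it found 13 probe sets for 9 genes among 22215. TCP1 has no value at either time, because its probe sets (1 at 12 h and 3 at 6 h) are annotated to a small nucleolar RNA gene as well, and CCT5 was found at 6 h only.

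MRC5 cells, a line of human diploid fibroblasts from lung, were given 10 µM 8-oxoguanine, an oxidised form of the base guanine, or were mock treated with solvent. RNA was read on single-colour expression arrays, with 3 treated and 3 mock arrays at 12 h and 1 treated and 1 mock array at 6 h, on an array type with more probe sets. The labels describe the 12 h samples as technical replicates by extract and name no separate cultures. The p-values below therefore reflect the spread of these extracts alone, and that spread may be technical. One protocol field gives 6 h throughout, so the group at 12 h was taken from the time given for each array.

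CCT is built of paired rings, each of 8 different subunits, and uses ATP to fold actin, tubulin and a set of regulators such as CDC20, which prefoldin and other cofactors help to deliver. HSP60 forms a chamber in the mitochondrial matrix that folds imported proteins, and HSP10 is the lid that closes it. HSPD1 and HSPE1 lie next to each other and are read in opposite directions from a shared control region, which responds to heat shock factor. Both complexes are abundant in growing cells.

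The promoter windows of the genes the results turn on are printed here with the motif matches in capitals, because the mitochondrial pair shares its control region and because CCT7, CCT2 and HSPE1 are the members that passed the test at 12 h. Windows are from RefSeq (GRCh38.p14), run from 250 bases before to 50 bases after a gene's annotated start, and were found for 9 of the 10 genes (12 windows). The motifs searched on both strands were GAANNTTC and TTCNNGAA, a pair of neighbouring heat shock element units in either order, CCAAT, and GGGCGG, the core of the GC box. GAANNTTC and TTCNNGAA can overlap each other.
HSPD1, chr2:197499791-197500090, minus strand: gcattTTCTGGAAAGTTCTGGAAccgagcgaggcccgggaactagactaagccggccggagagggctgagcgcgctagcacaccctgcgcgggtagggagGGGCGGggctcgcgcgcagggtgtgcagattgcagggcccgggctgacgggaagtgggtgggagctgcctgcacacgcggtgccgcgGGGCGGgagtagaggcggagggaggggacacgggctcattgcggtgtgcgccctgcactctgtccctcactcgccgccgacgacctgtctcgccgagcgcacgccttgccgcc
HSPE1, chr2:197500129-197500428, plus strand: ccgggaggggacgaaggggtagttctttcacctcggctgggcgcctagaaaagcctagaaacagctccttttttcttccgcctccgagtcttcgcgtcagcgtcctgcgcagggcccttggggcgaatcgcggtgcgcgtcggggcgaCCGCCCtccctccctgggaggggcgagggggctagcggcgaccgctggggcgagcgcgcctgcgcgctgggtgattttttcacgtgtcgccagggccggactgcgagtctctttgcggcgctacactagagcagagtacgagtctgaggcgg
CCT7, chr2:73234058-73234357, plus strand: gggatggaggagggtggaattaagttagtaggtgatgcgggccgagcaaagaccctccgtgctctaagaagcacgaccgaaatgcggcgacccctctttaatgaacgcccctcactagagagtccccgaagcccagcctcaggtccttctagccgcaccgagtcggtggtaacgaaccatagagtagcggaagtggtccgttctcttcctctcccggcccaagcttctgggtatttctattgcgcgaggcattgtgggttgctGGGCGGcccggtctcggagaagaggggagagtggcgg
CCT2, chr12:69585209-69585508, plus strand: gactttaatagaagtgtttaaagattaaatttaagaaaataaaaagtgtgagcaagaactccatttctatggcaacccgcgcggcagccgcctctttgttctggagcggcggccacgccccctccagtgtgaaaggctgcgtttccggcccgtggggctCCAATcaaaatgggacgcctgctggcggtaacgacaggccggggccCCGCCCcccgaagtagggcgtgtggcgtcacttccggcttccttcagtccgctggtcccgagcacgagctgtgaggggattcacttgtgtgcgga

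Near its 5′ end the HSPD1 window holds TTCTGGAAAGTTCTGGAA, 4 heat shock element units without a gap, at chr2:197500068-197500085. The stretch lies 228 bases before that HSPD1 start and 294 bases before the HSPE1 start, and just outside the printed HSPE1 window. RefSeq gives HSPD1 another start only 105 bases from that of HSPE1. Counted from that start the stretch lies downstream, and the windows of those starts share 204 bases. Across all 35116 windows of this length, TTCNNGAA was found in 7.74% and GAANNTTC in 6.77%. Among the member windows, TTCNNGAA was found in 2 of 12 (HSPD1 and CCT4) and GAANNTTC in 3 of 12 (HSPD1, TCP1 and the second CCT2 window, not printed). CCAAT was found in 4 of 12 windows (CCT2, CCT3, CCT8 and TCP1) against 34.6% of all windows, and GGGCGG in 9 of 12 against 44.95%. Some genes have more than 1 window, and the HSPE1 window and the second HSPD1 window hold the same GGGCGG site. Counted by gene, GGGCGG was found in 7 of 9. The member windows held 57.67% to 70.67% G and C, against a median of 58.67% over all windows. The part of this content in the matches was not tested. A match describes these letters only.

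At 12 h, HSPE1 fell by 29.2%, CCT7 fell by 27.4% and CCT2 fell by 17.1% in treated cells. The other 5 measured genes, CCT3, HSPD1, CCT8, CCT6A and CCT4, had changes from -13.3% to -2.08% and did not pass the test. No member rose. In such whole-culture RNA, fewer cells of a kind and less RNA per cell cannot be told apart. The test was limma's moderated test over 5248 probe sets that passed a limit on dim signals (all 8 members passed it), with Benjamini-Hochberg adjustment over all of them and a threshold of 0.05. Of all probe sets tested, 13.2% passed. Those lower in treated cells were 6.65% of all tested and those higher 6.59%, against 3 of 8 members lower and 0 higher. Without 8-oxoguanine replicate 1 the members called were 1 of 8, CCT7. At an unadjusted p under 0.05, 4 members were lower and 0 higher. The share of all probe sets at that looser limit was not counted, so nothing is read from this count. The median log2 fold change was -0.17 over the 8 members and 0.01 over all probe sets tested.

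Among the CCT subunits, CCT7, the eta subunit, changed most. Its signal, on the linear scale of the arrays, read 1520, 1537 and 1493 with 8-oxoguanine against 1912, 2153 and 2218 in mock cells. Every treated array was below every mock array, and the treated arrays lay within a much narrower range (SD 21.9) than the mock arrays (SD 161; n = 3 each). The log2 fold change was -0.46 (SE 0.08 in the limma fit, adjusted p = 0.00416), and the call held under all 13 alternatives in which it was recomputed, with adjusted p from 0.00298 to 0.0264.

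CCT2, the beta subunit, read 1946, 2057 and 1884 with 8-oxoguanine against 2382, 2480 and 2241 in mock cells. The groups did not overlap, and both spread by a similar amount (SD 87.8 and 121, n = 3 each). The log2 fold change was -0.27 (SE 0.07 in the limma fit, adjusted p = 0.0347). This call was kept in 4 of 13 alternatives. Without any one of the 6 arrays the adjusted p was between 0.0514 and 0.121, with the change still below 0. The adjusted p was 0.0528 with the extract number as a replicate block, 0.0539 with no filter and 0.0990 without the intensity trend.

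CCT3, the gamma subunit, read 2574, 2468 and 2127 with 8-oxoguanine against 2732, 2821 and 2689 in mock cells. These groups did not overlap either, but 1 treated array (replicate 3) lay well below the others. The log2 fold change of -0.21 (SE 0.08) did not pass (limma adjusted p = 0.131).

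CCT8, the theta subunit, read 2411, 2341 and 2265 with 8-oxoguanine against 2777, 2484 and 2409 in mock cells. The highest treated array lay just above the lowest mock array, and the log2 fold change of -0.13 (95% interval -0.29 to 0.04) did not pass. CCT6A, the zeta subunit, read 1044, 1096 and 941 with 8-oxoguanine against 1184, 1114 and 1049 in mock cells, again overlapping, with a log2 fold change of -0.12 (95% interval -0.31 to 0.07). CCT4, the delta subunit, had the smallest change, reading 5931, 5955 and 6356 with 8-oxoguanine against 6134, 6408 and 6082 in mock cells. Its groups overlapped throughout, and its log2 fold change of -0.03 has a 95% interval of -0.18 to 0.12, so a fall as large as the value of CCT7 or CCT2 lies outside it, while a smaller one does not. Whether the subunits differ from each other in their change was not tested.

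Within the mitochondrial pair, HSPE1 fell and HSPD1 did not pass. HSPE1 read 772, 897 and 782 with 8-oxoguanine against 1334, 1119 and 1023 in mock cells. All 3 treated arrays were below all 3 mock arrays, with the mock arrays spread more widely (SD 159 against 69.3, n = 3 each). The log2 fold change was -0.50 (SE 0.11 in the limma fit, adjusted p = 0.0161). The call was lost without 8-oxoguanine replicate 1 (adjusted p = 0.0678), where the change was -0.46, and with a variance model that has no intensity trend (0.0547).

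HSPD1 read 5844, 5781 and 5511 with 8-oxoguanine against 6318, 5982 and 6416 in mock cells. The groups did not overlap, and the whole shift was small, from a mean of 6239 ± 227 to 5712 ± 177 (SD, n = 3). Its log2 fold change was -0.13 (95% interval -0.27 to 0.02, limma adjusted p = 0.238). To compare the partners, the HSPD1 value was taken from the HSPE1 value on each array on the log2 scale. With 8-oxoguanine this difference came to -2.92, -2.69 and -2.82, and in mock cells to -2.24, -2.42 and -2.65, a change of -0.37. All treated arrays were below all mock arrays, and the exact two-sided permutation p was 0.1, the smallest that 3 against 3 arrays can give.

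Counted by arrays alone, 5 of the 8 members (CCT7, HSPE1, CCT2, CCT3 and HSPD1) had every treated array below every mock array. Over all probe sets tested this held for 16.5%, and for 17.4% in the other direction. A value below 0 was found for 8 of 8 members and for 48.6% of all probe sets. Members are bright and share the arrays, so these counts are not independent of each other. In the band of mean signals from 1000 to 4000, which holds CCT7, CCT2, CCT3, CCT8 and CCT6A, 13.2% of 1051 probe sets were called lower, more than among dimmer (5.01%) or brighter ones (4.88%).

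**Figure D1:**
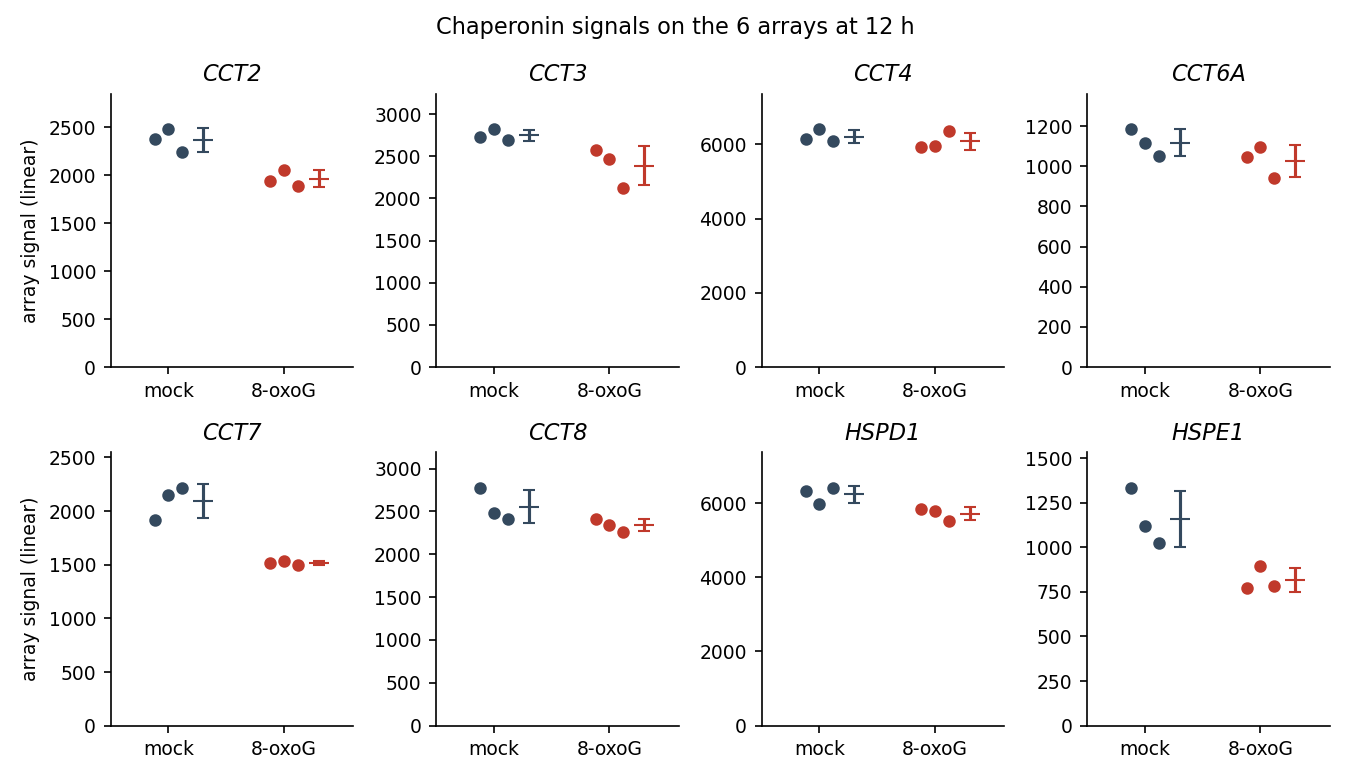
Signal of each chaperonin gene on the 6 arrays at 12 h on a linear axis from 0, with mock arrays in dark blue and 8-oxoguanine arrays in red, 1 point per array and the mean ± SD (n = 3) beside them. The treated points of CCT7, HSPE1, CCT2, CCT3 and HSPD1 lie below all mock points, while those of CCT8, CCT6A and CCT4 overlap with them.

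**Figure D2:**
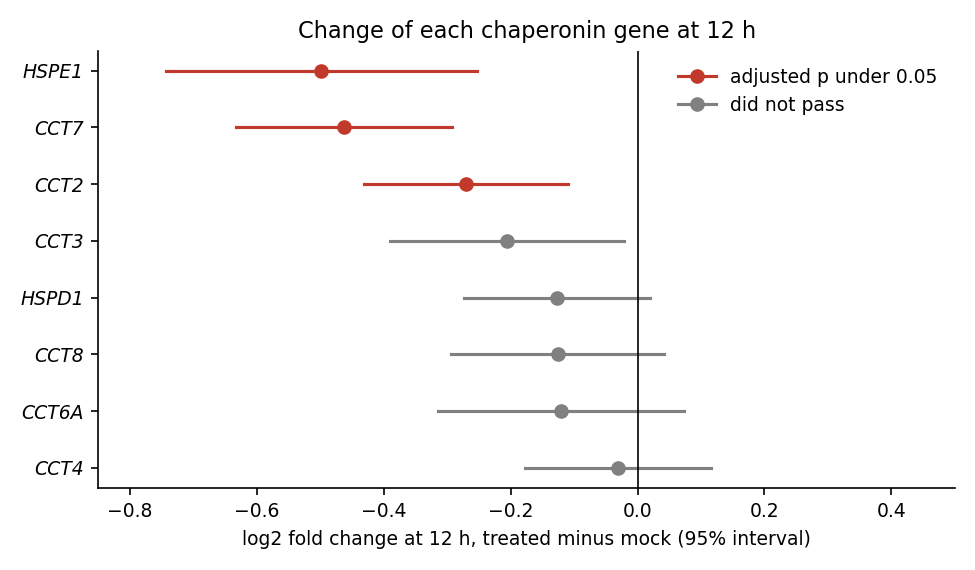
Log2 fold change (treated minus mock) of each chaperonin gene at 12 h with its 95% interval from the limma fit, in red where the adjusted p is under 0.05. The genes run from HSPE1 at -0.50 to CCT4 at -0.03, and the intervals of HSPD1, CCT8, CCT6A and CCT4 include 0.

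The ratio of the 3' to the 5' actin control, a measure of RNA integrity, was 1.03, 1.07 and 0.999 on the treated and 0.995, 0.889 and 0.946 on the mock arrays at 12 h, so it did not overlap between the groups. The GAPDH ratio was between 0.779 and 0.843 on all 6 and overlapped. The part of RNA integrity in the members' values was not tested. Fibroblast markers differed in brightness at 12 h. VIM read from 16119 to 21604 and COL1A2 from 19196 to 24361, but PDGFRB from 906 to 1254 and LUM from 121 to 313. In limma's test LUM and PDGFRB were called higher in treated cells (log2 fold change 1.07 and 0.30, adjusted p = 0.0034 and 0.0446), and the other fibroblast markers were not called. The summed signal of the 7 fibroblast markers found was 59705 to 73714 in treated and 60350 to 73601 in mock cells. The 5 epithelial markers summed to 4127 to 4433 in treated and 3990 to 4198 in mock cells, nearly all of it KRT18 (3553 to 4107). KRT19 reached 283 and KRT8 186, while EPCAM and CDH1 did not exceed 27.4. In limma's test KRT19 was called lower in treated cells (log2 fold change -1.27, adjusted p = 0.001455), and the other epithelial markers were not called. The 3 endothelial markers summed to 133 to 173 in treated and 164 to 177 in mock cells, with PECAM1 at up to 148 and CDH5 and VWF at no more than 34.4. The 3 blood markers summed to 283 to 328 in treated and 249 to 359 in mock cells, with HBB at 206 to 242, CD3D at up to 107 and PTPRC at up to 37.1. Array medians were 157 to 165 at 12 h, and the number of arrays limits the precision.

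Genes that work with the chaperonins were taken from 8 lists of 84 genes, of which 55 were tested at 12 h. Each count of genes that passed is to be read against the 6.65% of all probe sets tested that were called lower and the 6.59% called higher. Counts at an unadjusted p under 0.05 are not to be read against these shares. The share of all probe sets at that looser limit is larger and was not counted. In the list of prefoldin and CCT cofactors, which bring clients to CCT, 0 of 8 passed in limma's test, and 1 was higher at an unadjusted p under 0.05. That gene, PFDN5, a prefoldin subunit, had a log2 fold change of 0.29 (SE 0.09, adjusted p = 0.0704), and PFDN4, another subunit, had 0.32 (SE 0.15). The median of the list was 0.03, with 4 of 8 below 0.

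In the list of actin and tubulin folding clients, 2 of 6 fell, 0 rose and 4 did not pass, with a median of -0.26. The 6 tested were tubulin genes and ACTR3, an actin-related gene. The actin genes ACTB and ACTG1 were listed but not tested. TUBB3, a beta-tubulin, read 1609, 1806 and 1836 with 8-oxoguanine against 2503, 2576 and 2485 in mock cells, far apart. In limma's test it fell by 0.53 on the log2 scale (SE 0.07, adjusted p = 0.00184). TUBB4B, another beta-tubulin, fell by 0.47 (SE 0.10, adjusted p = 0.0151), a call lost without 8-oxoguanine replicate 1 (0.0697) or 2 (0.0670) and without the intensity trend (0.0608). Beta-tubulin genes are near copies of each other, so their probe sets may share signal. TUBA1A and TUBB had values of -0.02 and -0.09 and did not pass.

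Of the other CCT clients, 2 of 5 fell and 3 did not pass, with a median of -0.10. CDC20, which activates the anaphase-promoting complex, went from 717 ± 69.9 to 401 ± 32.7 (SD, n = 3), which is -0.84 on the log2 scale (SE 0.11, adjusted p = 0.00126 in the limma fit). PLK1, a mitotic kinase, had -0.81 (SE 0.14, adjusted p = 0.00593). Both are also genes of mitosis. The beta subunits of G proteins, GNB1 and GNB2, had -0.09 and -0.10 and did not pass.

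The tubulin cofactors act after CCT to join alpha- and beta-tubulin. Of 4 tested, TBCC rose by 0.52 (SE 0.11, limma adjusted p = 0.0125), a call lost without 8-oxoguanine replicate 2 (0.0595). TBCB fell by 0.36 (SE 0.10, adjusted p = 0.0481), a call kept in only 3 of 13 alternatives. It was lost without any one array (0.0518 to 0.135), with median centring (0.0699), with the replicate block (0.0557), with no filter (0.0836) and without the intensity trend (0.110). TBCA and TBCE had values of -0.0023 and 0.03.

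Among the cytosolic HSP70, HSP40 and HSP90 chaperones and their cochaperones, 0 of 17 passed in limma's test, with 4 lower and 1 higher at an unadjusted p under 0.05 and a median of -0.07. The largest values were those of DNAJA2, an HSP40 (0.36, SE 0.14), and HSPA14, an HSP70 relative (-0.35, SE 0.17). STIP1, which links HSP70 to HSP90, had -0.33 (SE 0.10) and lay just outside the threshold (adjusted p = 0.0510). HSP90AB1, the constitutive HSP90, had -0.28 (SE 0.09, adjusted p = 0.0851), and HSP90AA1, the inducible one, 0.0040. HSPB1, a small heat shock protein, fell by 0.32 (SE 0.07, limma adjusted p = 0.0148), as 1 of 3 tested in its list, and lost the call without 8-oxoguanine replicate 1 (0.0743) or 2 (0.0653) and without the intensity trend (0.0620).

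In the list of mitochondrial HSP70 and quality control, which holds the chaperone upstream of HSP60 and the matrix proteases, 1 of 10 rose, 0 fell and 9 did not pass, with a median of 0.04. At an unadjusted p under 0.05, 2 were higher and 2 lower. The gene that rose was HSPA9, or mortalin, the HSP70 that pulls proteins into the matrix. It read 1820, 1904 and 1807 with 8-oxoguanine against 1407, 1589 and 1496 in mock cells, with no overlap, the opposite direction to HSPE1 on the same arrays. In the limma fit it rose by 0.30 on the log2 scale (SE 0.07, adjusted p = 0.0239). Leaving out an array ended this call in 4 of 6 cases, with adjusted p of 0.0802 and 0.103 (8-oxoguanine replicates 1 and 2) and 0.0816 and 0.0714 (mock replicates 1 and 3). It was also lost without the intensity trend (0.0756). CLPP, a matrix protease, had -0.37 (SE 0.11, adjusted p = 0.0575) and TRAP1, the mitochondrial HSP90, 0.12 (SE 0.16).

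Of the heat shock factor list, 2 genes were tested. HSF1, the main heat shock factor, was dim and did not pass, with a value of 0.10 (SE 0.18, adjusted p = 0.773 in the limma fit). HSBP1, which binds HSF1 and restrains it, read 1508, 1754 and 1496 with 8-oxoguanine against 2202, 2263 and 2015 in mock cells, and fell by 0.45 (SE 0.09, adjusted p = 0.00847), a call that held under all 13 alternatives.

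**Figure D3:**
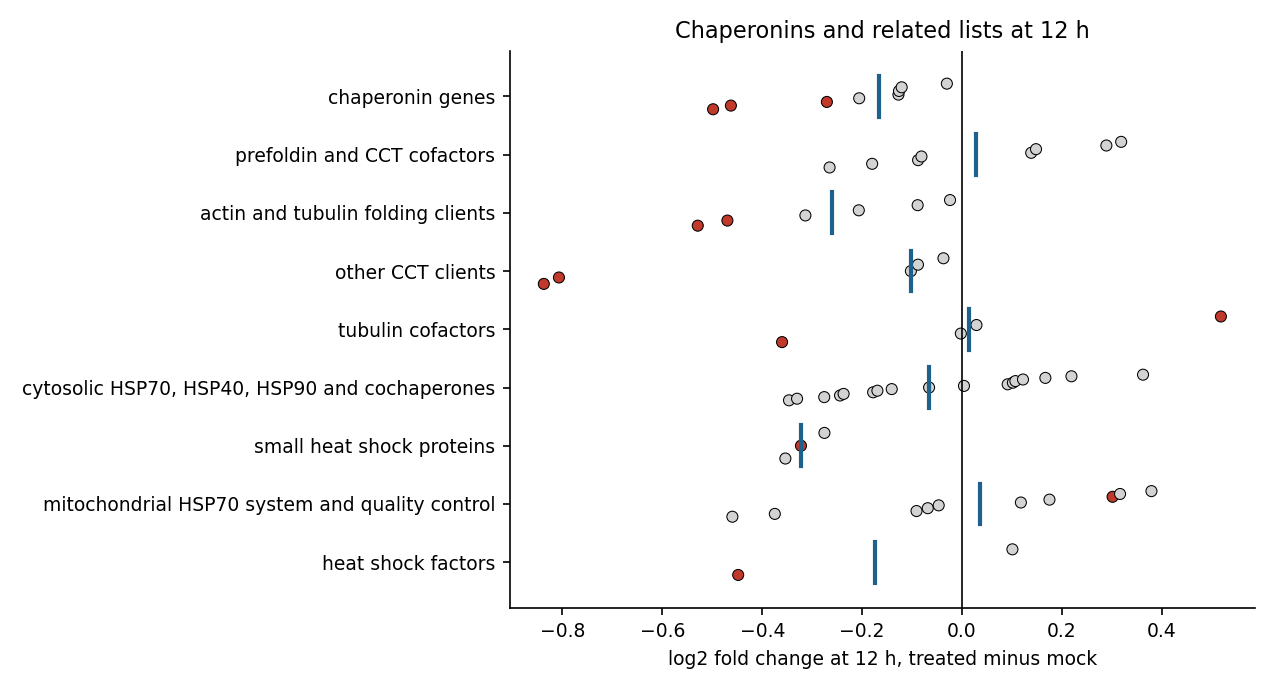
Log2 fold change (treated minus mock) at 12 h of each gene tested in the chaperonin group and the 8 related lists, 1 point per gene, red where the limma adjusted p is under 0.05, with the median of each list as a blue bar. The chaperonin points all lie below 0 with a median of -0.17. So do those of the actin and tubulin folding clients, the other CCT clients and the small heat shock proteins. The remaining lists have points on both sides of 0.

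For each member that passed, the genes with the nearest pattern were found by the root mean square difference between the deviations from their own mean log2 value over the 6 arrays at 12 h, among 4744 probe sets of other genes. Nearest to CCT7 were MCM3, a subunit of the replicative helicase (0.04), PRSS23, a serine protease (0.05), and TGFB1, the growth factor (0.05). Nearest to HSPE1 were EHD1, a membrane-trafficking ATPase (0.05), EIF2AK3, the endoplasmic reticulum stress kinase PERK (0.06), and CRABP2, a retinoic acid carrier (0.07). Nearest to CCT2 were RARS1, arginyl-tRNA synthetase (0.03), PDLIM2 (0.03) and CHRM2, a muscarinic receptor (0.03). Another chaperonin gene came at place 228 for CCT7 (CCT2), 118 for HSPE1 (CCT2) and 128 for CCT2 (CCT3). These are descriptions over 6 arrays.

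The 6 h values come from a single treated and a single mock array, so they have no test and no replicate check. HSPE1 was the lowest of 12 member probe sets above the limit on dim signals, reading 1759 in treated and 2361 in mock cells (log2 ratio -0.42). It stayed below 0 after median centring (-0.31) and quantile normalization (-0.42). Relative to HSPD1 on the same arrays the log2 ratio of HSPE1 differed by -1.10 as deposited and -0.42 after quantile normalization on the HSPD1 probe set measured at both times. On the second HSPD1 probe set these differences were -0.66 and -0.38.

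The highest ratios were those of HSPD1 and CCT4, the brightest members. HSPD1 read 11601 in treated and 7258 in mock cells (log2 ratio 0.68), while its second probe set, with 5691 and 4832, gave 0.24. CCT4 read 8524 and 5638 (log2 ratio 0.60). These were the 2 of 12 member probe sets 1.5-fold or more higher, with 0 of 12 lower by that much, against 3.32% higher and 5.44% lower of all 11108 probe sets kept. On these arrays brightness moved with the ratio: the median log2 ratio was 0.43 over 739 probe sets with a mean signal above 4000 and 0.00076 over 2769 between 1000 and 4000. The summed signal of 9 fibroblast markers was also higher in treated than in mock cells, at 1.0145e+05 against 55273. So were the sums of the epithelial (3729 against 2772), endothelial (125 against 97.2) and blood markers (250 against 222). The part of these sums in the members' ratios was not tested. After quantile normalization HSPD1 was at 0.0029 and CCT4 at 0.17.

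Among the other CCT subunits at 6 h, CCT5, the epsilon subunit, read 3859 in treated and 3154 in mock cells (log2 ratio 0.29), and CCT7 read 3222 and 2703 (log2 ratio 0.25). Both stayed above 0 after quantile normalization (0.20 and 0.21). CCT2 had 0.06 and 0.19 on its probe sets, CCT8 0.07, CCT3 0.06, and CCT6A 0.11 and -0.07, and their probe sets lay between -0.17 and 0.16 after quantile normalization. A second CCT8 probe set was dim (39.5 and 45.2, under the limit of 148) and was left out. In all, 10 of 12 member probe sets lay above 0 as deposited, against 45.6% of all probe sets kept. After median centring 11 lay above 0, and after quantile normalization 5. The share of all probe sets was not counted under those scalings, so nothing is read from the counts of 11 and 5. Over all probe sets kept, the median log2 ratio was -0.03 as deposited, 0.08 after median centring and 0.02 after quantile normalization. The median over 9 genes was 0.19 as deposited, 0.30 after median centring and -0.09 after quantile normalization, so it has no settled sign.

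**Figure D4:**
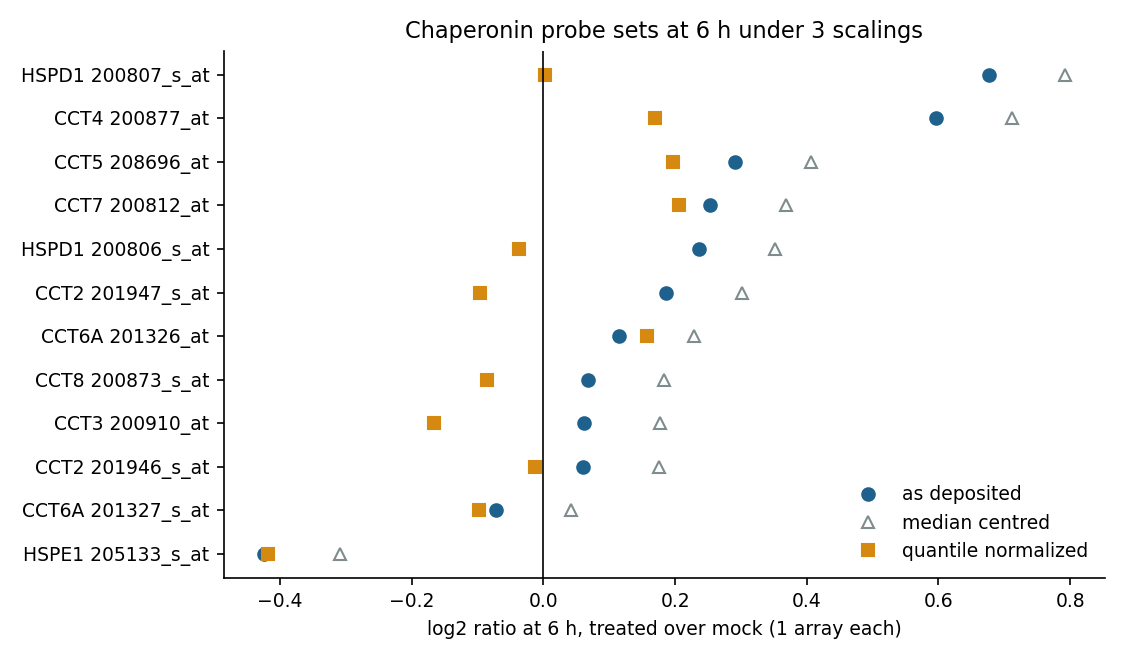
Log2 ratio (treated over mock, 1 array each) at 6 h of the 12 member probe sets above the dim limit, as deposited (blue circles), median centred (open triangles) and quantile normalized (orange squares). HSPE1 lies below 0 under each scaling, at -0.42, -0.31 and -0.42, while HSPD1 and CCT4 move from 0.68 and 0.60 to 0.0029 and 0.17 after quantile normalization.

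The times were read on different array types, so the values are given side by side only. CCT7 had a log2 ratio of 0.25 at 6 h and a log2 fold change of -0.46 at 12 h, CCT2 had 0.06 and -0.27 on the same probe set, and HSPE1 had -0.42 and -0.50. No test was made between the times, and time and array type cannot be told apart.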

How the data were processed

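Total RNA of 8 samples was labelled with biotin and read on Affymetrix arrays of different types at 12 h and 6 h. The authors deposited 1 linear intensity per probe set and array, which the submitters' processing notes credit to MAS5 with no version. The 2% trimmed mean was 499.9 on each array, so a common scaling had been applied. Groups follow the labels.

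Log2 of the intensity was taken without further scaling and control probe sets were left out. Dim probe sets were left out as well, by a limit on the mean log2 value at the 40th percentile for 12 h (a signal of 93.9) and the 50th for 6 h (148). At 12 h, limma 3.58.1 in R 4.3.3 (lmFit, eBayes with intensity trend) was fitted to all 5248 remaining probe sets, two-sided, with Benjamini-Hochberg adjustment over all of them. In a self-test on simulated data for this comparison (5248 probe sets), 87 of 100 probe sets given a 2-fold change were called. The same held for 49 of 100 given a 1.5-fold change, and 4 calls were false. Lists were counted with the brightest probe set per gene. Of each list, genes that passed were named and, where none did, the 2 with the largest change; others named beside them were chosen after their values were seen. The members and lists were chosen with earlier results of these data known. Alternatives were median centring, quantile normalization, no or a stricter filter (60th and 70th percentile), a constant before log2, no intensity trend, a replicate block and each 12 h array left out in turn. Promoter windows and symbols are from RefSeq tables (GRCh38.p14), which changed no symbol.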

Additional observations from a re-analysis of the deposited data

Results flagged for a closer look

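On 4 probe sets every treated array lay below every mock array at 12 h while the single treated array lay above the single mock array at 6 h. Over all probe sets, 16.5% of those tested did the first at 12 h, and 45.6% of those kept did the second at 6 h. The share that did both was not counted, so nothing particular to the members is read from this count. The log2 ratio at 6 h was 0.06 for CCT2, 0.0618 for CCT3, 0.253 for CCT7 and 0.677 for HSPD1, against log2 fold changes of -0.271, -0.206, -0.463 and -0.127 at 12 h. This difference was not tested, and array type changed with time. After quantile normalization at 6 h, CCT2 (-0.01) and CCT3 (-0.17) lay below 0, HSPD1 was at 0.0029 and CCT7 at 0.21. Groups of 3 arrays are too small for a search for outlying arrays.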

How the results depend on the processing

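All 8 members stayed below 0 at 12 h under each of the 13 alternatives, and of 104 recomputed values 93 kept their side of the threshold and 11 lost their call (9 of CCT2 and 2 of HSPE1). The 3 calls among members became 1 without the intensity trend, 2 with no filter and 1 to 2 when 1 array was left out, the lowest without 8-oxoguanine replicate 1. The 9 calls in the related lists became 5 without the trend and 5 to 9 with 1 array left out, and the 695 calls over all probe sets 371 to 649 (371 and 386 without 8-oxoguanine replicates 1 and 2, 451 without mock replicate 3). The cause was not tested. The median of the members ranged from -0.20 to -0.11 and the difference between HSPE1 and HSPD1 from -0.48 to -0.27 with 1 array left out. At 6 h the median over members was 0.302 after median centring but -0.0857 after quantile normalization, and the count past 1.5-fold fell from 2 to 0 with quantile normalization.

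The extract numbers did not pair the arrays: the deviations of same-numbered extracts correlated at 0.08, -0.15 and -0.05. With the extract number as a replicate block, 2 members were called (CCT2 lost its call, with adjusted p = 0.0528), 8 genes in the related lists (TBCB lost its call, 0.0557) and 513 probe sets in all. Detection calls were not used here. The SEs of the members were 0.065 to 0.11 on the log2 scale, so changes of the size seen for CCT8, CCT6A and CCT4 were not detectable with 3 arrays per group.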

Other observations

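The run of heat shock element units in the HSPD1 window was set against all promoter windows. In a search added after the data were seen, 3 heat shock element units without a gap were found in 172 of 35116 promoter windows, 0.490%, and 4 such units in 9 windows, 0.0256%. Of the 166 genes with 3 units, 23 were tested at 12 h. In limma's test 2 of them rose, SYNC, an intermediate filament protein (0.38, SE 0.07, adjusted p = 0.00666), and ZNF83, a zinc finger protein (0.91, SE 0.25, adjusted p = 0.0384), and 0 fell, with 4 higher and 5 lower at an unadjusted p under 0.05. Over all probe sets tested 6.59% were called higher and 6.65% lower, so the 2 calls higher and 0 lower show nothing particular to the genes. The share of all probe sets at an unadjusted p under 0.05 was not counted, so nothing is read from the counts at that limit. Their median log2 fold change was 0.0040. Chaperone and cochaperone genes among them had values on both sides of 0 and did not pass, namely DNAJA1 (0.17), CHORDC1 (0.09), HSP90AA1 (0.0040), HSPD1 (-0.13), HSP90AB1 (-0.28) and SERPINH1, the collagen chaperone (-0.29). The genes named here were chosen after their values were seen. A match in these windows is a description of sequence only.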
